A study of Mus musculus with 6 samples.

Results

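The genes described here are 39 mouse genes of the apoptosis machinery: the BCL2 family, the caspases, the death receptors with a ligand, the adaptors that join receptors to caspases, and the proteins that hold caspases in check. They were named as a list by gene symbol, and each symbol matched 1 of the 53700 identifiers in the deposited table. Poly-A RNA was sequenced from SL4 cells, a luciferase-expressing mouse CRC line, in 3 pLV-Control libraries, which are those without SEMA6A overexpression, and 3 pLV-SEMA6A libraries, in which a lentivirus stably overexpresses the semaphorin SEMA6A. No other treatment is given for either group. Neither separate pLV-SEMA6A clones nor separate cultures per library are described, so p-values measure the spread between libraries, which may be technical, and an effect of SEMA6A cannot be told apart from a difference between 2 cell lines. Whether the sequenced pLV-Control cells carried an empty vector is not given in the sources used here.

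Apoptosis runs along a pair of routes that meet at the caspases. In the extrinsic route, ligands of the TNF family engage death receptors, and the adaptor FADD brings CASP8 to the receptor, where the catalytically inactive relative CFLAR (c-FLIP) competes with it. In the intrinsic route, BH3-only proteins and anti-apoptotic BCL2 proteins decide whether BAX and BAK1 open the outer mitochondrial membrane, and the cytochrome c that leaks out drives APAF1 to activate CASP9. CASP8 can link the routes by cutting BID, and inhibitor of apoptosis proteins such as XIAP hold caspases back until DIABLO (SMAC) displaces them. In colorectal tumours these genes are known above all for the balance between BCL2 relatives and for resistance to death ligands.

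Sema6a itself was listed at 0 in every pLV-Control library, and at 98.7, 118 and 112 TPM (transcript abundance per length, as a share of the library) in the pLV-SEMA6A ones, the direction that the labels give. Markers of colon epithelium were almost absent, since 0 of 7 reached a mean of 1 TPM, Epcam and Cdx2 were listed at 0 in every library and the highest single value was 0.39 TPM. Their summed level was 0.13 to 0.49 TPM in pLV-Control libraries and 0.25 to 0.52 TPM in the others. Of the fibroblast markers, 3 of 4 reached a mean of 1 TPM, none was at 0 throughout, and the sum was 5.01 to 6.38 TPM with pLV-Control and 6.96 to 7.96 TPM with pLV-SEMA6A, without overlap. The markers did not move together: Col1a1 rose from 1.27 ± 0.106 to 3.603 ± 0.244 TPM (log2 fold change 1.02, limma adjusted p = 0.000681), Pdgfra fell from 1.76 ± 0.333 to 0.780 ± 0.145 TPM (-0.63, adjusted p = 0.0219), Dcn averaged 2.21 and 2.05 TPM with overlap, and Col1a2, too low to test, 0.420 and 0.870 TPM. Leukocyte markers summed to 0.77 to 2.06 and 0.97 to 1.27 TPM, with 1 of 4 at 0 throughout, and endothelial markers to at most 0.15 TPM in either group. The part of any such cells in the results was not tested, and in bulk RNA fewer cells of a type and less RNA per cell cannot be told apart.

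Of the 39 genes, 34 had a mean of at least 1 TPM and were tested with limma on log2(TPM + 1), a scale that understates the change of low genes. All log2 fold changes below are pLV-SEMA6A minus pLV-Control on that scale, each p is adjusted by Benjamini-Hochberg over all 12510 tested genes, and a gene "rose" or "fell" where that p was under 0.05. The 5 untested genes were Bik and Hrk, listed at 0 in every library, and Bmf, Birc3 and Tnfsf10, with means of 0.698, 0.130 and 0.0717 TPM. Of the 34, 10 fell (29.4%, against 28.2% of all tested genes) and 6 rose (17.6%, against 19.5%), while 18 did not pass. The genes that fell were Casp6, Casp8, Casp9, Casp12, Cflar, Birc2, Traf2, Bcl2l1, Bcl2l11 and Bnip3l. The genes that rose were Bax, Bid, Cycs, Diablo, Fadd and Bcl2. These shares lie near those of all genes, so the number of changed genes is not a result about this list.

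A gene was called a DEG where the log2 fold change also exceeded 0.5 in either direction. The DEGs were Casp12, Birc2, Casp9 and Cflar, all lower (11.8% of the 34, against 10.8% of all tested genes). None of the 34 was a DEG in the higher direction (0 by limma, against 5.12% of all tested genes), and without adjustment the count past 0.5 was likewise 4 lower and 0 higher, out of 12 lower and 8 higher genes at an unadjusted p under 0.05. The pLV-Control and pLV-SEMA6A libraries did not overlap for 22 of the 34 genes (64.7%), against 58.5% of all tested genes. The median log2 fold change was -0.05 over the 34 genes and -0.06 over all tested genes.

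The scale of the libraries moves the balance of directions. When each library was centred on its own median, all log2 fold changes rose by 0.09, and 7 of the 34 genes were lower (20.6%, against 19.8% of all tested genes) and 12 higher (35.3%, against 26.9%) at an adjusted p under 0.05. Over all genes the share of DEGs that were higher went from 32.2% to 51.0% (1002 higher and 961 lower after centring). Mcl1, Bak1, Bok, Htra2, Aifm1 and Tnfrsf1a passed as higher after centring but not before, while Bcl2l1, Bnip3l and Traf2 no longer passed as lower. The 4 DEGs stayed DEGs after centring.

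**Figure D1:**
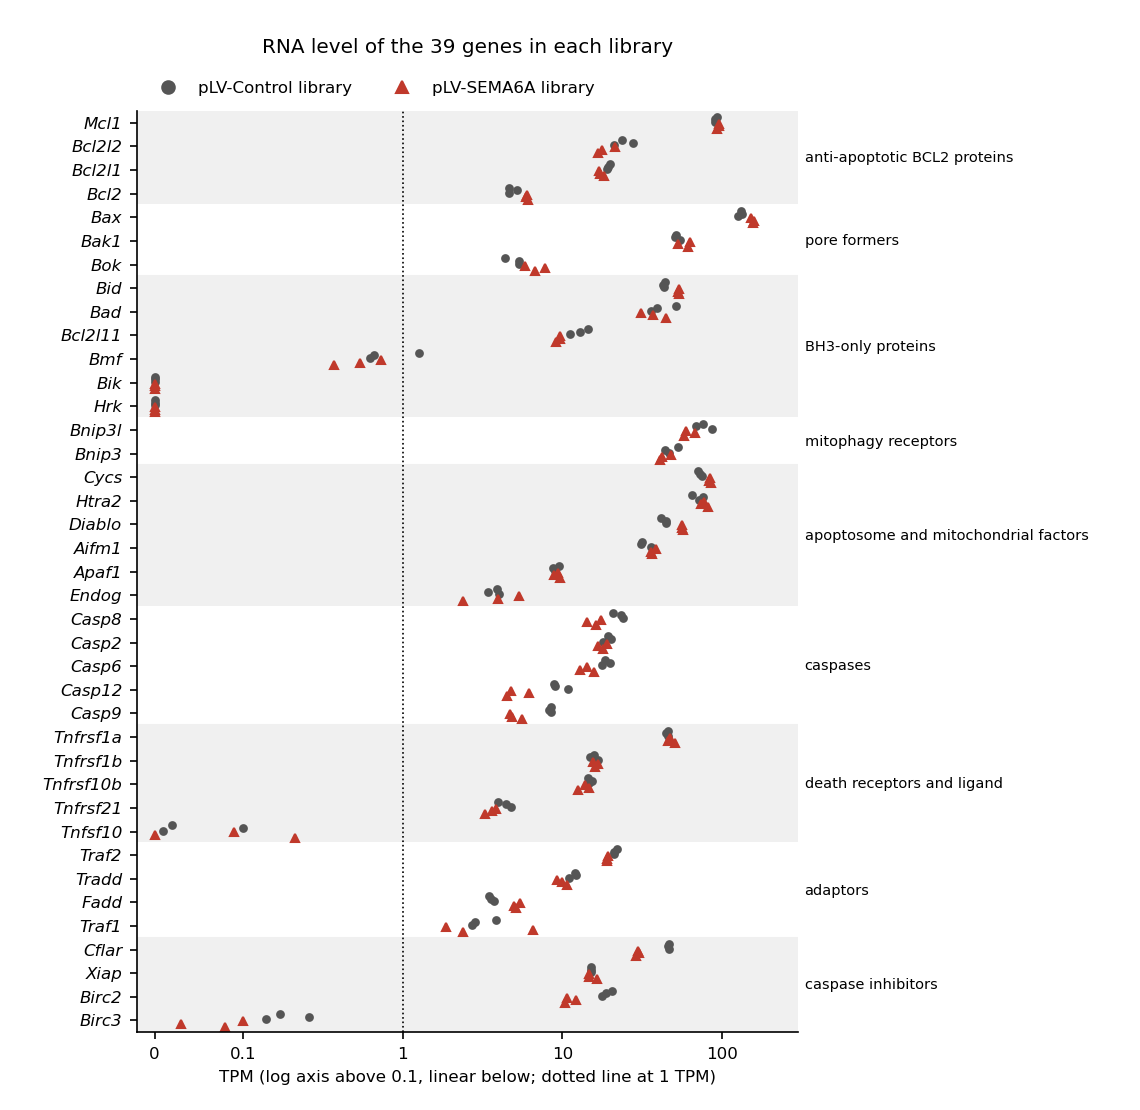
Level of each of the 39 genes in each library, in TPM on an axis that is logarithmic above 0.1 and linear below it. Grey circles are pLV-Control libraries, red triangles pLV-SEMA6A libraries, rows are grouped by role and the dotted line marks 1 TPM. Bax is the most abundant gene, Bik and Hrk sit at 0, and the triangles lie clearly left of the circles for Cflar, Birc2, Casp9 and Casp12.

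**Figure D2:**
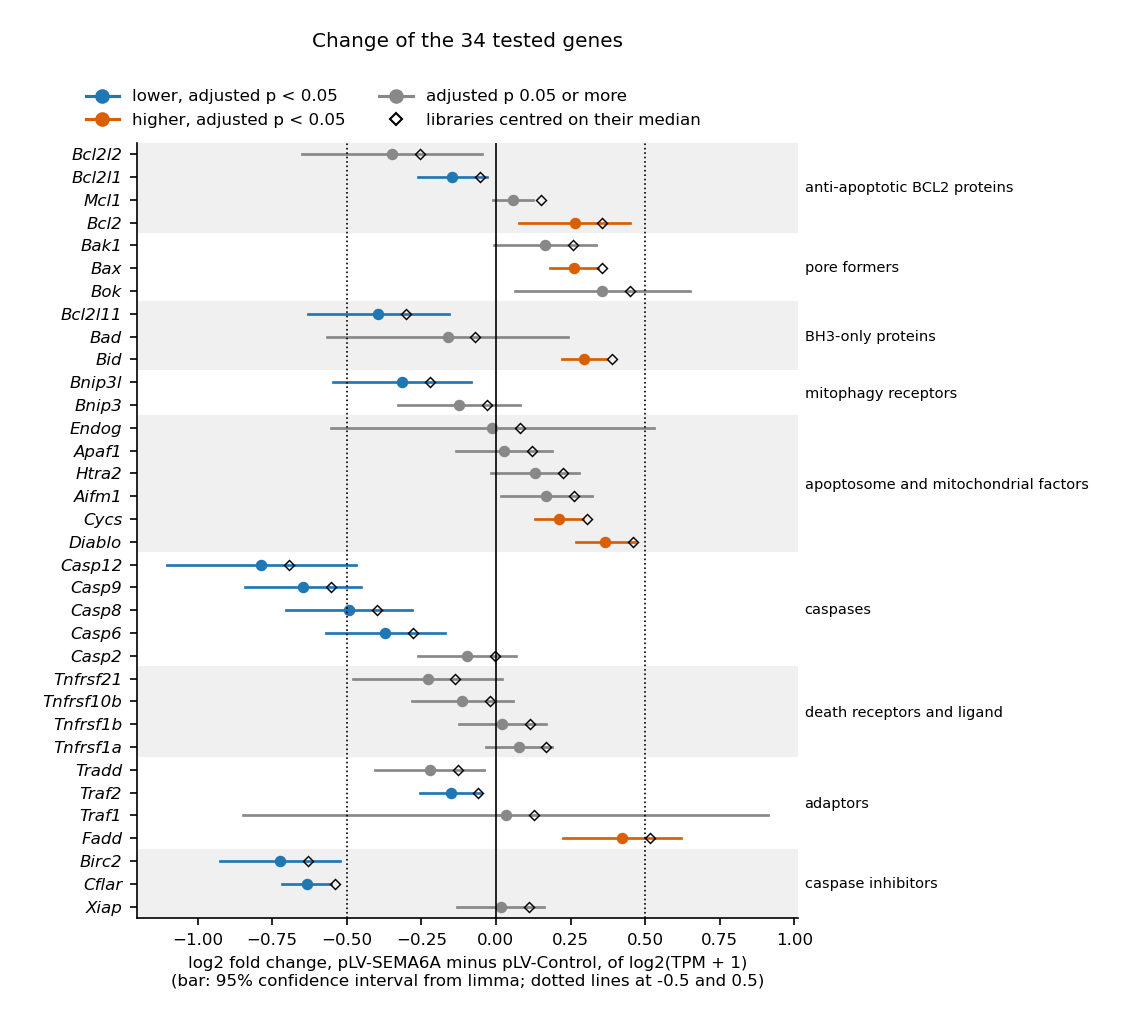
Log2 fold change of the 34 tested genes (pLV-SEMA6A minus pLV-Control, log2(TPM + 1)) with the 95% confidence interval from limma as a bar, grouped by role. Blue marks an adjusted p under 0.05 with a lower level, orange one with a higher level, grey neither. Open diamonds give the value after centring each library on its median, and dotted lines mark a change of 0.5. All 5 caspases lie left of 0, and only Casp12, Birc2, Casp9 and Cflar lie beyond the left dotted line.

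Of the 5 receptor and ligand genes in the list, 4 were tested and none passed. That is 0% lower and 0% higher, against 28.2% and 19.5% of all tested genes, on very few genes. Tnfrsf1a, the main receptor for TNF and the most abundant of the receptors, stood at 45.8, 44.8 and 45.9 TPM in pLV-Control cells and at 47.1, 46.1 and 51.1 TPM in pLV-SEMA6A cells. The groups did not overlap, but the log2 fold change was only 0.08 (95% confidence interval -0.03 to 0.19, adjusted p = 0.219), and it passed only after centring (0.17, adjusted p = 0.0291). Tnfrsf1b, the TNF receptor without a death domain, averaged 15.9 and 16.1 TPM in the pLV-Control and pLV-SEMA6A libraries (0.02, interval -0.12 to 0.17). Tnfrsf10b, the mouse death receptor for TRAIL, averaged 14.8 and 13.7 TPM (-0.11, interval -0.28 to 0.06). Tnfrsf21, the death receptor DR6, averaged 4.39 and 3.59 TPM without overlap (-0.23, interval -0.48 to 0.02, adjusted p = 0.114). Tnfsf10, which encodes TRAIL, was listed at 0 to 0.21 TPM over the 6 libraries, with both extremes among the pLV-SEMA6A libraries, so this ligand was listed near 0 in either group.

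Among the adaptors, Fadd rose and Traf2 fell. Fadd, which carries CASP8 to the receptors, stood at 3.48, 3.59 and 3.74 TPM in pLV-Control cells and at 5.40, 4.98 and 5.12 TPM in pLV-SEMA6A cells. Every pLV-SEMA6A library lay above every pLV-Control library, with a log2 fold change of 0.42 (SE 0.082, adjusted p = 0.00636). That is the highest rise among the 34 genes on the log2(TPM + 1) scale. It exceeded 0.5 with a pseudocount of 0.1 (0.51) and after centring (0.51).

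Traf2, which ties TNF receptors to survival signalling, stood at 22.1, 21.1 and 20.99 TPM in pLV-Control cells and at 19.2, 19.1 and 19.1 TPM in pLV-SEMA6A cells. The groups did not overlap and the change was small (-0.15, SE 0.043, adjusted p = 0.0270), and the call was lost after centring (-0.06, adjusted p = 0.297) and when any of the 6 libraries was left out (adjusted p = 0.0510 to 0.0866). Tradd, the adaptor of TNFRSF1A, stood at 12.1, 12.3 and 11.02 TPM and then at 9.22, 9.97 and 10.7 TPM. Its groups did not overlap either, and at -0.22 (SE 0.076) the adjusted p was 0.0504, just outside the threshold that Traf2 met. Tradd passed in 5 of 13 alternative analyses, among them the one without pLV-SEMA6A replicate 3 (-0.27, adjusted p = 0.0415). After centring it did not pass (-0.13, adjusted p = 0.217). Traf1, a TRAF protein that works with TRAF2 in survival signalling, stood at 3.84, 2.85 and 2.70 TPM and then at 1.86, 6.59 and 2.40 TPM. The replicate 2 value alone put the pLV-SEMA6A mean above that of pLV-Control (0.03, adjusted p = 0.949), and without it the log2 fold change was -0.40 and did not pass.

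The clearest change in the list was that of Cflar, the CASP8 look-alike that blocks death receptor signalling. Cflar stood at 46.8, 46.3 and 46.4 TPM in pLV-Control cells and at 29.8, 30.1 and 29.0 TPM in pLV-SEMA6A cells. The 2 groups lay far apart compared with the spread within them (46.5 ± 0.287 and 29.6 ± 0.557 TPM, SD, n = 3), at 0.637 times the pLV-Control level. The log2 fold change was -0.63 (SE 0.034, adjusted p = 3.4e-05), and Cflar was a DEG in all 13 alternative analyses that kept the 0.5 minimum. Of its 31-base transcript stretches, 9.26% also occur in other genes on the same strand.

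Birc2, which encodes cIAP1, a ubiquitin ligase that keeps the TNF receptor complex in its survival mode, stood at 20.4, 18.9 and 17.7 TPM in pLV-Control cells. In the pLV-SEMA6A libraries it stood at 10.7, 12.3 and 10.4 TPM, all below the lowest pLV-Control library. The log2 fold change was -0.72 (SE 0.083, adjusted p = 0.000693), and it too was a DEG in all 13 alternatives. Birc3, its close relative cIAP2, lies next to Birc2 on chromosome 9 with 0 coding genes between them in RefSeq, and was listed at only 0.14 to 0.26 TPM with pLV-Control and 0.03 to 0.10 TPM with pLV-SEMA6A. Xiap, the inhibitor that binds caspases directly, stood apart from both: it was listed at 15.2, 15.1 and 15.2 TPM and then at 14.8, 14.7 and 16.6 TPM, with groups that overlap (0.02, interval -0.13 to 0.16, adjusted p = 0.845). So of the caspase inhibitors in the list, Cflar and Birc2 fell, and for Xiap no difference was detected. Of the BIRC relatives outside the list, Birc5 (survivin), which also serves chromosome segregation, rose from 74.0 ± 1.33 to 102 ± 5.14 TPM (0.45, adjusted p = 0.000307), and Birc6 averaged 43.6 and 40.3 TPM (-0.11, adjusted p = 0.329).

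The promoters of the 4 DEGs are shown, with motifs of the STAT and interferon routes, because those routes are what the study examined. RefSeq promoter windows on GRCm38.p6 (250 bases before to 50 after the start, 300 in all) matched 34 of the 39 genes. The unmatched genes were Bik, Bnip3l, Htra2, Tnfrsf10b and Tradd. The authors' processing notes name the build mm39, which holds other coordinates. Each line gives the bases up to the start (for Cflar with 20 bases after it), 5′ to 3′ on the strand of the gene, and capitals mark a motif match.
Cflar, chr1:58711391-58711510, plus strand: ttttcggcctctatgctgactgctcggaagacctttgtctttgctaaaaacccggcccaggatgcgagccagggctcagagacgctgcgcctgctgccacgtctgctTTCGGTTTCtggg
Birc2, chr9:7837058-7837157, minus strand: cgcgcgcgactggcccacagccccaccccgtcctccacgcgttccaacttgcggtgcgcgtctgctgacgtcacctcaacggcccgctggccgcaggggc
Casp9, chr4:141793512-141793611, plus strand: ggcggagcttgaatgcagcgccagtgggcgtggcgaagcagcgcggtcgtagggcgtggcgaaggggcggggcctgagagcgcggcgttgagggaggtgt
Casp12, chr9:5345356-5345475, plus strand: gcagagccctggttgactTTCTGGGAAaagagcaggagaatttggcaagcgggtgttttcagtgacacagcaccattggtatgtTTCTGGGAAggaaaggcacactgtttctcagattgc

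Both strands of the windows were searched for 2 cores. The core of the interferon-stimulated response element, GAAANNGAA, occurs in 8.56% of all 32851 windows. In the list it occurs in 3 of 43 windows, those of 3 of the 34 matched genes. In Cflar it lies 8 bases after the start on the minus strand, shown in capitals, and the others are Xiap (60 bases before the start) and Tnfrsf1b (9 bases before it). The core of STAT sites, TTCNNNGAA, occurs in 8.3% of all windows and again in 3 of the 43 windows and 3 of the 34 genes of the list. At these counts neither core was clearly more common in the list than among all windows. Casp12 has it in a pair of identical copies, TTCTGGGAA, that begin 102 and 36 bases before the start, and the others are Tnfrsf1a (244 bases before) and Tnfrsf1b (181 bases before). Neither core is in the Casp9 or Birc2 window. The windows also differ in base composition, with a G and C content of 66% for Casp9 and 67% for Birc2, above the upper quartile of all windows (61.7%), and of 45% for Cflar and 41% for Casp12, below the lower quartile (45.7%). Among the genes with a match, Cflar and Casp12 fell while Xiap, Tnfrsf1a and Tnfrsf1b did not pass, and a match is a run of letters and not a shown binding site.

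**Figure D3:**
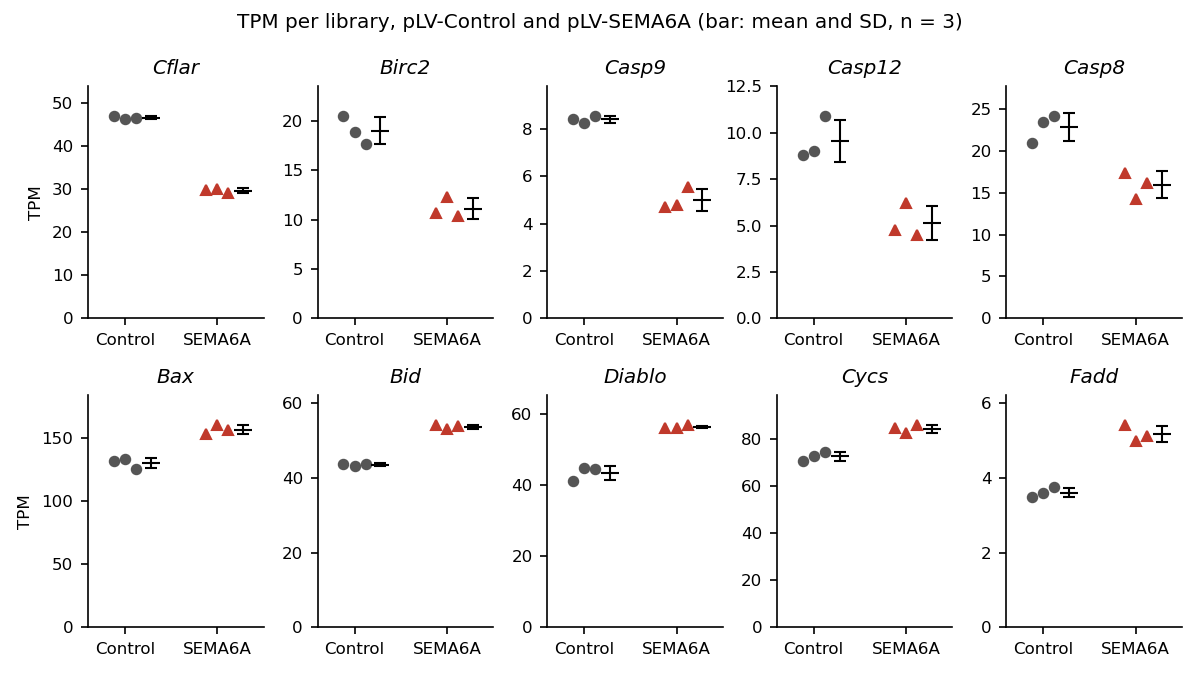
TPM in each library for 10 genes, with 0 at the foot of every axis. Grey circles are pLV-Control and red triangles pLV-SEMA6A libraries, and the bar beside them gives the mean and SD (n = 3). The upper row holds genes that fell (Cflar, Birc2, Casp9, Casp12 and Casp8) and the lower row genes that rose (Bax, Bid, Diablo, Cycs and Fadd). The 10 were picked from genes that passed, so the lack of overlap in all 10 is no separate result. The libraries did not overlap for 58.5% of all tested genes.

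Of the 5 caspases in the list, 4 fell and none rose, with a median log2 fold change of -0.49. Casp9, the initiator that the apoptosome activates, stood at 8.44, 8.25 and 8.54 TPM in pLV-Control cells and at 4.70, 4.81 and 5.55 TPM in pLV-SEMA6A cells. The highest pLV-SEMA6A library lay well below the lowest pLV-Control library (-0.65, SE 0.081, adjusted p = 0.000972). Casp12, a caspase of the inflammatory branch that sits at the endoplasmic reticulum, stood at 8.81, 9.01 and 10.9 TPM and then at 4.74, 6.20 and 4.51 TPM. With -0.79 (SE 0.13, adjusted p = 0.00335) it had the largest fall of the 34 genes on this scale, and its libraries spread more widely than those of Casp9. Casp9 and Casp12 were DEGs in all 13 alternatives, and hardly any of their transcript stretches occur elsewhere on the same strand (0.04% and 0%).

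Casp8, the initiator at death receptors, stood at 20.9, 23.4 and 24.1 TPM in pLV-Control cells and at 17.4, 14.2 and 16.2 TPM in pLV-SEMA6A cells. The groups did not overlap (-0.49, SE 0.088, adjusted p = 0.00424). It passed in all 13 alternatives but lay just inside 0.5, and it was a DEG in 5 of them, namely with a pseudocount of 0.1, with a rescaling that left out the 100 most abundant genes, and without pLV-Control replicate 1 (-0.55), pLV-SEMA6A replicate 1 (-0.56) or pLV-SEMA6A replicate 3 (-0.51). Casp8 and Cflar lie side by side on chromosome 1 with 0 coding genes between them in RefSeq, and both fell.

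Casp6, an effector caspase that cuts nuclear lamins, stood at 18.5, 19.9 and 17.8 TPM in pLV-Control cells and at 14.3, 12.8 and 15.7 TPM in pLV-SEMA6A cells. It fell by 0.37 on the log2 scale (SE 0.083, adjusted p = 0.0108) without overlap, and passed in all 13 alternatives. Casp2, the initiator linked to DNA damage, was the exception among the 5, with 19.2 ± 1.13 and 17.9 ± 1.18 TPM and overlapping groups (-0.10, interval -0.26 to 0.07, adjusted p = 0.282).

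The BH3-only genes went in different directions. Bid, whose protein CASP8 cuts to reach the mitochondria, was the most abundant of them and stood at 43.7, 43.0 and 43.6 TPM in pLV-Control cells and at 54.0, 52.9 and 53.8 TPM in pLV-SEMA6A cells. The libraries of each group were close together and the groups did not overlap (0.30, SE 0.031, adjusted p = 0.000439). Transcripts on the opposite strand share 16.9% of the Bid stretches, and since the strand setting of the counting is not given, their reads cannot be told apart from those of Bid. The same holds for Bak1 (20.4%), Bad (18.4%), Htra2 (37.6%), Endog (34.1%) and Diablo (22.6%). Bcl2l11, which encodes BIM, a strong activator of BAX, stood at 14.6, 13.0 and 11.1 TPM and then at 9.72, 9.73 and 9.08 TPM. Bcl2l11 fell by 0.39 (SE 0.098, adjusted p = 0.0168) without overlap, and missed the threshold without pLV-Control replicate 2 (adjusted p = 0.0516) or pLV-SEMA6A replicate 3 (adjusted p = 0.0543).

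Bad, the BH3-only protein that growth factor kinases silence, ranged from 36.1 to 51.5 TPM with pLV-Control and from 31.2 to 44.7 TPM with pLV-SEMA6A, and the groups overlapped (-0.16, interval -0.57 to 0.24). Bmf, which responds to loss of attachment, was listed at 0.62 to 1.27 and 0.37 to 0.73 TPM. Bik and Hrk, BH3-only genes with narrow expression, were listed at 0 in every library.

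Of the pore formers, Bax rose. Bax was the most abundant gene of the whole list and stood at 132, 133 and 125 TPM in pLV-Control cells and at 153, 159.8 and 156 TPM in pLV-SEMA6A cells. The lowest pLV-SEMA6A library lay above the highest pLV-Control library (0.26, SE 0.033, adjusted p = 0.00109), at 1.20 times the pLV-Control mean. Of the Bax stretches, 11.1% also occur in other genes on the same strand, most often Gm45808.

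Bak1, its partner, stood at 51.5, 50.9 and 55.0 TPM and then at 63.3, 53.1 and 61.0 TPM. Replicate 2 of pLV-SEMA6A lay within the pLV-Control range (0.17, interval -0.01 to 0.34, adjusted p = 0.0989), and without that library Bak1 passed (0.24, adjusted p = 0.0127), as it did after centring. Bok, a pore former that can act without BH3-only activators, stood at 4.40, 5.38 and 5.38 TPM and then at 5.84, 7.76 and 6.71 TPM. Its groups did not overlap, and with 0.36 (SE 0.12) its adjusted p was 0.0510. Bok passed after centring (adjusted p = 0.0229), with a pseudocount of 0.1 (adjusted p = 0.0476) and without pLV-SEMA6A replicate 1 (0.45, adjusted p = 0.0350).

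Of the anti-apoptotic BCL2 genes, Bcl2 rose, Bcl2l1 fell, and Mcl1 and Bcl2l2 did not pass. Mcl1, a short-lived protein and the most abundant of them as RNA, stood at 93.2, 90.3 and 90.6 TPM in pLV-Control cells and at 95.6, 96.0 and 93.9 TPM in pLV-SEMA6A cells. These libraries did not overlap, yet the log2 fold change of 0.06 (interval -0.01 to 0.13, adjusted p = 0.129) passed only after centring (0.15, adjusted p = 0.00400). Bcl2l2, which encodes BCL-W, stood at 23.7, 27.7 and 20.95 TPM and then at 21.5, 17.8 and 16.7 TPM. The groups overlapped (-0.35, interval -0.65 to -0.05, adjusted p = 0.0593), and Bcl2l2 passed without pLV-Control replicate 3 (-0.44, adjusted p = 0.0384) or pLV-SEMA6A replicate 1 (-0.45, adjusted p = 0.0314). It shares 12.8% of its stretches with other genes, chiefly Gm20521.

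Bcl2l1, which encodes BCL-XL, stood at 20.01, 19.5 and 19.1 TPM in pLV-Control cells and at 17.1, 17.3 and 18.3 TPM in pLV-SEMA6A cells. It fell by 0.15 (SE 0.048, adjusted p = 0.0447) without overlap, and of the 6 libraries only pLV-SEMA6A replicate 3 could be left out without losing the call (adjusted p = 0.0750 to 0.127 without each of the others). After centring the value was -0.05 (adjusted p = 0.415). Bcl2, the founding member of the family, was low, with 4.64, 5.18 and 4.66 TPM and then 5.98, 5.93 and 6.06 TPM. Bcl2 rose by 0.26 (SE 0.077, adjusted p = 0.0303) without overlap, and only pLV-Control replicate 2 could be left out without losing the call (adjusted p = 0.0679 to 0.0862 without each of the others). So Bcl2 and Bcl2l1 passed in opposite directions, at 1.24 and 0.899 times the pLV-Control mean, and both calls rest on having all or nearly all libraries.

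Bnip3l and Bnip3 are BCL2 relatives at the mitochondrial surface that mark mitochondria for autophagy under low oxygen. Bnip3l stood at 76.5, 69.1 and 86.8 TPM in pLV-Control cells and at 59.3, 68.2 and 58.3 TPM in pLV-SEMA6A cells. Replicate 2 was the lowest of one group and the highest of the other, and the groups just failed to overlap (-0.32, SE 0.096, adjusted p = 0.0344). Its call was lost after centring (adjusted p = 0.0950) and without pLV-Control replicate 1 or 3 or pLV-SEMA6A replicate 1 or 3 (adjusted p = 0.0771 to 0.101), and a pseudogene, Bnip3l-ps, holds its shared stretches (23.7%). Bnip3 averaged 48.0 ± 4.33 and 43.9 ± 3.86 TPM with overlapping groups (-0.12, interval -0.33 to 0.08), and 55.2% of its stretches occur in genes on the opposite strand.

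Apaf1 of the apoptosome and the mitochondrial factors, 6 genes in all, included no gene that fell (0%, against 28.2% of all tested genes). Of the 6, 2 rose (33.3%, against 19.5%). Cycs, cytochrome c, stood at 71.0, 72.8 and 74.7 TPM in pLV-Control cells and at 84.8, 82.6 and 86.02 TPM in pLV-SEMA6A cells. It rose by 0.21 (SE 0.033, adjusted p = 0.00249) without overlap, though 29.2% of its stretches occur in other genes, chiefly Gm10053. Diablo, the antagonist of XIAP, stood at 41.3, 44.8 and 44.4 TPM and then at 56.1, 56.1 and 56.8 TPM. Diablo rose by 0.37 (SE 0.041, adjusted p = 0.000632), again without overlap, and shares 18.5% of its stretches on the same strand. Cycs and Diablo passed in all 13 alternatives, as did Bax and Bid.

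Htra2, a serine protease that also binds XIAP, stood at 65.4, 75.7 and 71.8 TPM in pLV-Control cells and at 77.1, 74.4 and 81.4 TPM in pLV-SEMA6A cells, with overlap (0.13, interval -0.02 to 0.28, adjusted p = 0.127). Aifm1, a flavoprotein of the respiratory chain that can move to the nucleus, stood at 31.6, 31.2 and 35.9 TPM and then at 38.4, 36.2 and 36.4 TPM. The groups of Aifm1 did not overlap (0.17, SE 0.063, adjusted p = 0.0678), and it passed without pLV-Control replicate 3 (0.23, adjusted p = 0.0134). Apaf1, the scaffold of the apoptosome, averaged 9.10 ± 0.449 and 9.29 ± 0.446 TPM with overlapping groups (0.03, interval -0.13 to 0.19). Endog, a mitochondrial nuclease, averaged 3.79 ± 0.306 and 3.89 ± 1.46 TPM (-0.01, interval -0.55 to 0.53, or 0.08 after centring), so its wide spread in the pLV-SEMA6A libraries allowed no call in either direction.

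The comparison of survival with death genes was the question set for this list. The 10 genes assigned to survival were Bcl2, Bcl2l1, Bcl2l2, Mcl1, Traf1, Traf2, Cflar, Birc2, Birc3 and Xiap, 5 had roles on both sides, and the other 24 were assigned to death. Of the survival genes, 9 were tested, and 4 fell (Cflar, Birc2, Bcl2l1 and Traf2) while 1 rose (Bcl2), which is 44.4% and 11.1% against 28.2% and 19.5% of all tested genes, with a median log2 fold change of -0.15. Of the death genes, 20 were tested, and 4 fell (Casp6, Casp8, Casp9 and Bcl2l11) while 5 rose (Bax, Bid, Cycs, Diablo and Fadd), which is 20% and 25% and near the shares of all tested genes, with a median of 0.05. The 5 genes with roles on both sides gave 2 that fell (Casp12 and Bnip3l) and 3 that did not pass (Bnip3, Tradd and Tnfrsf1b). That is 40% lower and 0% higher, against 28.2% and 19.5% of all tested genes, on very few genes. Beside the -0.06 of all tested genes, the survival median was lower and the death median higher. The difference between the lists was not tested, since the genes had been chosen with earlier results known. After centring the medians were -0.05 for survival and 0.15 for death, against 0.03 for all tested genes, and 10 death genes were then higher and 4 lower at an adjusted p under 0.05, against 2 and 2 of the survival genes. As shares higher and lower, these are 50% and 20% of the death genes and 22.2% each of the survival genes, beside 26.9% and 19.8% of all tested genes. The death list itself was split by role: Casp6, Casp8, Casp9 and Bcl2l11 fell, and the genes that rose encode a pore former, a BH3-only protein, a receptor adaptor and mitochondrial factors.

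Since TPM is scaled per length, levels can be added and compared between genes. The summed level of the anti-apoptotic genes Bcl2, Bcl2l1, Bcl2l2 and Mcl1 was 141, 143 and 135 TPM in pLV-Control cells and 140.1, 137 and 135 TPM in pLV-SEMA6A cells, with overlap. The pore formers Bax, Bak1 and Bok summed to 188, 189.7 and 186 TPM and then to 222, 221 and 224 TPM, without overlap. BH3-only genes summed to 99.4 ± 10.2 and 101 ± 6.22 TPM, with overlap. The ratio of pore formers to anti-apoptotic genes was 1.33, 1.33 and 1.37 in the pLV-Control libraries and 1.58, 1.61 and 1.66 in the pLV-SEMA6A libraries. The difference lay in the pore formers, mostly Bax. With 3 libraries a group the smallest p of the exact permutation test is 0.1, so sums and ratios are given without a test.

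Ratios of single genes, chosen after their values were seen, depend on which partner is used. Bax over Bcl2 was 27.0 ± 1.32 and 26.1 ± 0.753, with overlap, since both genes rose. Bax over Bcl2l1 went from 6.67 ± 0.167 to 8.90 ± 0.350 and Bax over Mcl1 from 1.43 ± 0.0474 to 1.64 ± 0.0368, both without overlap. At the receptor, Cflar over Casp8 was 2.05 ± 0.169 and 1.87 ± 0.211 with overlap, as both fell, whereas Cflar over Fadd went from 13.5, 12.9 and 12.4 to 5.51, 6.04 and 5.66. Casp9 over Apaf1 went from 0.925 ± 0.0402 to 0.540 ± 0.0362 and Diablo over Xiap from 2.87 ± 0.134 to 3.68 ± 0.221, both without overlap.

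**Figure D4:**
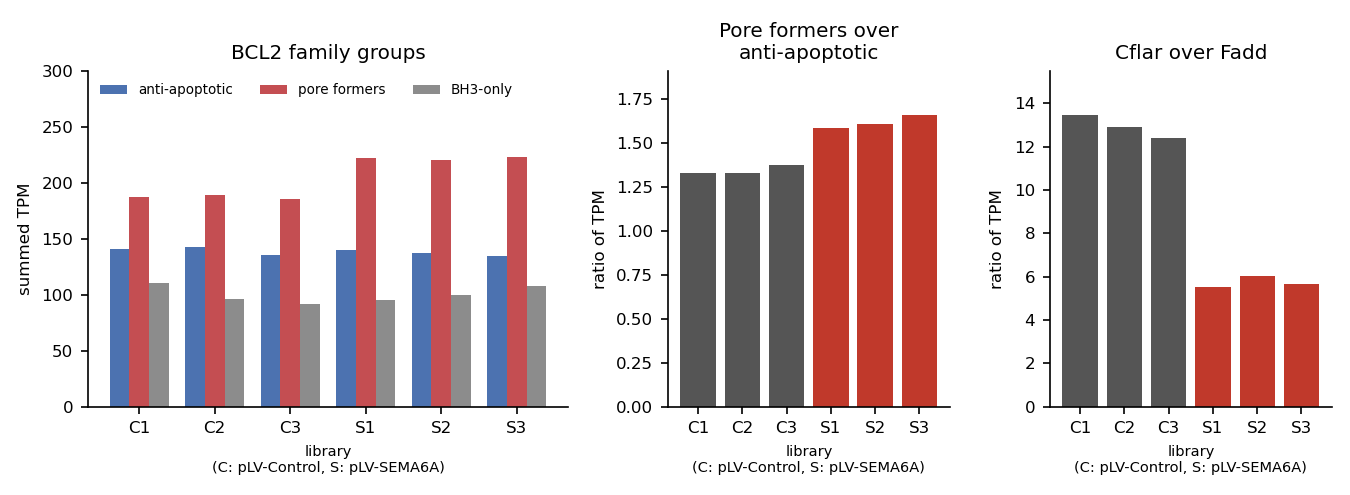
Left, summed TPM of the anti-apoptotic genes, the pore formers and the BH3-only genes in each library (C1 to C3 are pLV-Control, S1 to S3 pLV-SEMA6A). Middle and right, the ratio of pore formers to anti-apoptotic genes and of Cflar to Fadd in each library, with bars from 0. The pore former sum is 186 to 189.7 TPM with pLV-Control and 221 to 224 TPM with pLV-SEMA6A, the anti-apoptotic sum overlaps, and the Cflar to Fadd ratio drops from at least 12.4 to at most 6.04.

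A second list of 38 other genes of the pathway gave 27 tested genes, of which 9 fell and 7 rose (33.3% and 25.9%, against 28.2% and 19.5% of all tested genes), with a median log2 fold change of -0.02. After centring, 6 were lower and 11 higher (22.2% and 40.7%, against 19.8% and 26.9%). The DEGs among them were Rnf31, Tnfrsf23 and Tnfaip3, all lower (11.1%, against 10.8% of all tested genes), and none was higher (0 by limma, against 5.12%, with 3 lower and 0 higher past 0.5 without adjustment, and 9 lower and 8 higher at an unadjusted p under 0.05). Rnf31, the catalytic subunit of the linear ubiquitin ligase at the TNF receptor, averaged 15.7 ± 0.338 TPM with pLV-Control and 9.41 ± 1.38 TPM with pLV-SEMA6A (-0.69, adjusted p = 0.00162). Tnfrsf23, a mouse decoy receptor for TRAIL, averaged 13.2 ± 0.271 and 7.93 ± 0.437 TPM (-0.67, adjusted p = 0.000270), though 26.7% of its stretches occur in other genes, chiefly Tnfrsf22. Tnfaip3, the ubiquitin editor A20, averaged 16.5 ± 1.67 and 11.1 ± 1.64 TPM (-0.54, adjusted p = 0.00948), and after centring its change was under 0.5 (-0.45). The partners of Rnf31 in the linear ubiquitin ligase went in different directions, since Rbck1 rose from 57.2 ± 1.35 to 69.6 ± 1.43 TPM (0.28, adjusted p = 0.000867) and Sharpin fell from 50.6 ± 5.85 to 41.1 ± 3.01 TPM (-0.29, adjusted p = 0.0383), both without overlap. Rbck1, Sharpin, Birc5 and Birc6 were named after their values were seen.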

How the data were processed

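Expression was analysed from the deposited table of SL4 cells, which the authors gave as TPM per library with 2 decimals. Per the labels, poly-A RNA was fragmented and reverse transcribed with random primers, and the submitters' processing notes name HISAT, Bowtie2, RSEM and the build mm39. The strand setting is not given in the sources used here. TPM keeps no sequencing depth, so depth is unknown and no detection limit is given. Library sums of the listed TPM were 984475 to 986444 with pLV-Control and 977400 to 977972 with pLV-SEMA6A, without overlap. Genes listed above 0 numbered 19340 to 19463 and 18798 to 18887, again without overlap. The part of this difference in the results was not tested. The authors' group means were not used. Values were taken as log2(TPM + 1), genes averaging under 1 TPM were left out, and limma 3.58.1 (R 4.3.3, trend option, no term but the group) was run on the remaining 12510, with Benjamini-Hochberg adjustment. DEGs needed an adjusted p under 0.05 and a change beyond 0.5 in log2, a threshold that the supplement gives for its limma comparisons. For these libraries the supplement names DESeq2, which the authors used and which needs counts, with no threshold. Only the limma step was tested on simulated data. The simulation had far fewer changed genes than passed here and no shift common to all genes, so it does not bear on the scale of the libraries. Transcript stretches were compared over GENCODE M21. Every gene of the list is named. Values in every library are given for DEGs of the list, for the most abundant gene of each of its roles and for its genes whose call changes under an alternative, and some others. Named genes of the second list are given as group means. The results of some further genes are not reported here. The genes, lists and motifs were chosen with earlier results of these data known. The alternatives were a pseudocount of 0.1, no filter or a mean of at least 5 TPM, other minimum changes, centring, rescaling without the 100 most abundant genes, the replicate block, limma without trend and leaving out each library.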

Additional observations from a re-analysis of the deposited data

How the results depend on the processing

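Cflar, Birc2, Casp9 and Casp12 were DEGs in all 13 alternatives that kept the minimum of 0.5, and Bax, Bid, Cycs, Diablo, Casp6 and Casp8 passed in all 13 and Fadd in all 12 that tested it, each in 1 direction. Bcl2, Bcl2l1, Bnip3l and Traf2 passed in 5 of 13, and Bcl2l11 in 11. The 4 lower DEGs of the list became 10 with no minimum change and 0 with a minimum of 1, and the 0 higher DEGs became 6 with no minimum, and 1 (Fadd) with a pseudocount of 0.1 or with centring. Among the other pathway genes, 3 lower DEGs became 9 with no minimum and 0 with a minimum of 1, and 0 higher DEGs became 7 with no minimum and 1 (Birc5, 0.55) with centring. With no minimum, 29.4% of the tested genes of the list were lower and 17.6% higher, and 33.3% and 25.9% of the others. Over all tested genes these shares were 28.2% and 19.5%. With centring, 12 rather than 6 genes of the list rose (35.3% rather than 17.6%, against 26.9% and 19.5% of all tested genes). That count without a minimum was added after seeing the data. The medians with centring were -0.053 for survival and 0.15 for death genes. Centring adds 0.09 to each value. Log2 fold changes near 0, none past the test, changed sign for Endog with centring (0.081) and, over leaving out each library in turn, for Apaf1 (-0.00035 to 0.063), Endog (-0.22 to 0.23), Tnfrsf1b (-0.022 to 0.062), Traf1 (-0.40 to 0.31) and Xiap (-0.037 to 0.045). The replicate numbers are shared between the groups. The deviations of same-numbered libraries correlated at -0.079 to -0.023, and those of other numbers at -0.010 to 0.079, so no pairing by number was seen. With 3 libraries a group, this cannot show whether same-numbered libraries were prepared together, which the labels do not say. With the replicate block, 7 rather than 10 genes of the list fell and 6 still rose, since Bcl2, Bcl2l1, Bnip3l and Traf2 no longer passed and Bok did (adjusted p = 0.0352). For the replicate block and the alternatives other than centring and no minimum, shares of all tested genes were not computed. Their counts are thus no result about this list. Without depth, the counting error of low genes such as Bmf, Birc3 and Tnfsf10 is unknown.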
